A study of Mus musculus with 2 samples.

Results

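Amino acid transporters move amino acids across the plasma membrane, and 8 of their genes were followed here through the cells of a mouse tumour: Slc7a11, Slc7a5, Slc3a2, Slc1a5, Slc1a4, Slc7a1, Slc38a1 and Slc38a2. They were taken by name, as 8 of the 31053 genes counted, and each was found under its own gene identifier. The tumours were grown subcutaneously from B16F10, a mouse melanoma cell line that keeps its own Atf4, and were dissociated while small. The hosts carried CreERT2 at Rosa26 on a C57BL/6 background together with either wild-type Atf4 (Atf4wt/wt, WT) or a floxed Atf4 that is lost after tamoxifen (Atf4D/D, KO), and hosts of both genotypes were given tamoxifen. The deletion was therefore global, induced after birth and restricted to host cells, and the study describes it as nearly complete in whole organs. The labels give the mice as 11 weeks old, with males and females pooled, and single-cell RNA was counted with unique molecular identifiers (UMIs) in 1 library per genotype, each a pool of tumours.

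Amino acid transporters work in families. Slc3a2 encodes the heavy chain CD98, which carries light chains to the membrane: with Slc7a5 (LAT1) it exchanges large neutral amino acids such as leucine, and with Slc7a11 (xCT) it exports glutamate for cystine, the precursor of glutathione. Slc1a5 (ASCT2) carries glutamine, Slc1a4 (ASCT1) carries alanine, serine and cysteine, Slc7a1 (CAT1) carries arginine and lysine, and Slc38a1 and Slc38a2 (SNAT1 and SNAT2) carry glutamine and other small neutral amino acids with sodium. Many of these genes are known targets of ATF4, the transcription factor of the integrated stress response, which binds composite sites (C/EBP-ATF response elements) upstream of genes for amino acid uptake and synthesis.

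Promoter windows from RefSeq (GRCm38.p6), 300 bases each with 250 before the transcription start and 50 after it, were at hand for 5 of the 8 genes: Slc7a11, Slc7a1, Slc1a4, Slc38a2 and Slc3a2. They were searched on both strands for the letters TGATGNAA, the core of the composite element. Of 32851 windows, 3.97% held the motif and 0.0700% held it at least 2 times. It was found in Slc7a11 and Slc1a4. Both windows are shown because both genes were past 1.5-fold higher, in both libraries, in the stress-high tumour cells described below. Capitals mark the motif, which reads TTGCATCA where it lies on the other strand. The window of Slc7a11 is chr3:50443564-50443863 and that of Slc1a4 is chr11:20332664-20332963, both read on the minus strand, 5′ to 3′.
Slc7a11: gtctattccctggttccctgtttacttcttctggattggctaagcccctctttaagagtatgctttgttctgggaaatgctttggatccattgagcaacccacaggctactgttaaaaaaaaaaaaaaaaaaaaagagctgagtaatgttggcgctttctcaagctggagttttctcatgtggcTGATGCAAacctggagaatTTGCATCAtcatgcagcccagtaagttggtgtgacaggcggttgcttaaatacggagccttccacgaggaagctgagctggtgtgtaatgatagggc
Slc1a4: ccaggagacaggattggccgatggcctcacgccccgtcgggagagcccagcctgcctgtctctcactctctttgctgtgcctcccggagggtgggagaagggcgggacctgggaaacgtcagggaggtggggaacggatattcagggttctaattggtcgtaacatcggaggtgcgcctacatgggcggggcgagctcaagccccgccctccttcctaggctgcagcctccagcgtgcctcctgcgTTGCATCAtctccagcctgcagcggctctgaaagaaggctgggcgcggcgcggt
In Slc7a11 the motif lay at -66 to -59 on the strand of the gene and again at -47 to -40 on the opposite strand, counted from the start site, and these do not overlap. In Slc1a4 it lay at -4 to 3 on the opposite strand. Both windows of Slc7a1 and the windows of Slc38a2 and Slc3a2 held no match to these letters. The match is a description of sequence and no measurement of binding, and sites outside these windows were not searched.

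The libraries held 38417113 UMIs in 6304 barcodes (WT) and 38290024 UMIs in 5474 barcodes (KO), of which 3861 and 3557 cells passed the filters, with median depths of 3920 and 6279 UMIs. Cells were gated by marker genes into melanoma cells (1778 WT and 1837 KO cells), cancer-associated fibroblasts (CAFs, 189 and 213), macrophages (952 and 730), monocytes (206 and 138), endothelial cells (70 and 27) and T/NK cells (19 and 8). In each gated class the median level of its own markers was the highest, and monocytes also held macrophage and melanoma marker RNA. Melanoma marker RNA reached 3.35% to 12.1% of its level in melanoma cells in the CAF, macrophage, monocyte and endothelial gates, and this share was used to compute how much of a level melanoma RNA would give. Levels are UMIs per 1000000 UMIs of the class (CPM), so fewer transcripts of a gene and more of all others cannot be told apart. With 1 library per genotype the differences have no replicate check and no test, and intervals (95%, exact) cover counting error only. Genotype and library cannot be told apart. Y-linked UMIs were at 0 in the WT CAFs and macrophages and at 67 and 138 in KO, although the labels give males and females for WT too. No WT cell of these gates had Y-linked UMIs without Xist, against 47 CAFs and 115 macrophages in KO, so that host sex and genotype cannot be told apart over all host cells. Host cells that had Xist but no Y-linked UMIs were therefore also compared alone.

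Atf4 showed the genotype in the host cells. In CAFs it was at 261 CPM in WT and 38.6 in KO (192 and 33 UMIs), and the log2 ratio of KO over WT was -2.76 (-3.34 to -2.22). In macrophages it was at 179 and 41.0 CPM (435 and 74 UMIs), a log2 ratio of -2.13 (-2.51 to -1.77). In melanoma cells Atf4 was at 226 and 204 CPM, close to equal, with a log2 ratio of -0.15 (-0.21 to -0.09). Host cells of the KO library thus had far fewer Atf4 UMIs, while the tumour cells kept them.

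Most transporter UMIs came from the tumour cells, which also held most UMIs of all genes. Over all genes melanoma cells had 20133055 UMIs in WT and 19983910 in KO, against 2423935 and 1805762 in macrophages. A large share of UMIs in melanoma cells therefore does not by itself set a transporter apart. Melanoma cells held 90.6% of the Slc7a5 UMIs of all kept cells in WT and 90.9% in KO, and similar shares of Slc7a1 (90.0% and 88.0%) and Slc38a1 (90.7% and 89.9%). Slc7a11 was spread more widely, with 54.7% of its UMIs in melanoma cells in WT and 69.8% in KO. A further 18.5% in WT and 6.35% in KO lay in macrophages. On the CPM scale, 3 of the 8 genes (Slc7a5, Slc7a1 and Slc38a1) were highest in melanoma cells in both libraries among 5 classes. T/NK cells, with 19 and 8 cells, were left out of the order, as the plot of levels by class shows. Only for Slc7a1 in WT did the melanoma interval lie above that of the next class. For Slc7a1 in KO, and for Slc7a5 and Slc38a1 in both libraries, the first intervals overlapped. No such count over all genes is given here.

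**Figure D1:**
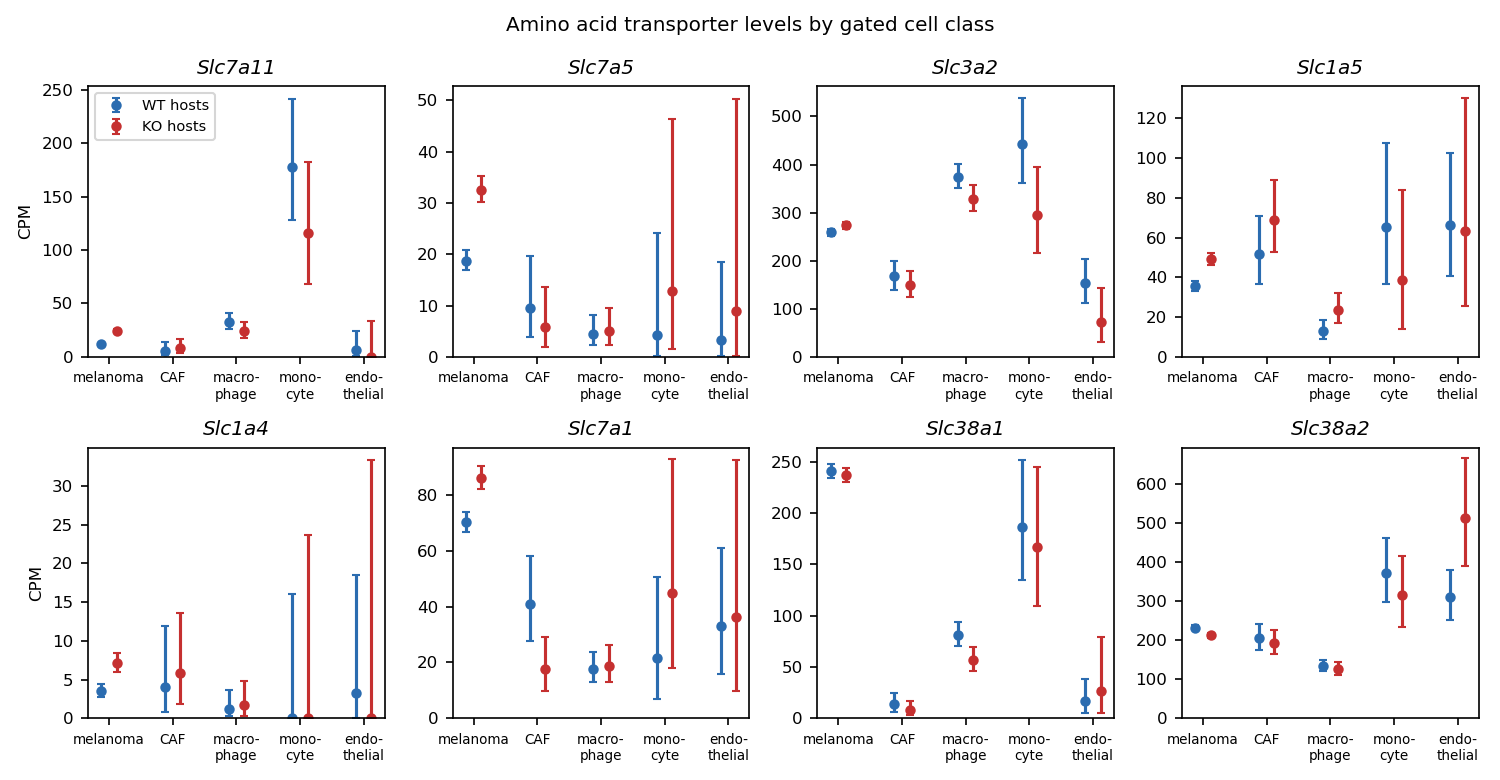
Level of each transporter in CPM (linear axis from 0) in 5 gated cell classes of the WT (blue) and KO (red) library, with exact 95% Poisson intervals for counting error; each panel has its own scale. Slc7a11 is highest in monocytes in both libraries (178 and 116 CPM), and the wide intervals of monocytes and endothelial cells come with their small UMI totals.

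The heavy chain Slc3a2 was measured in every class. It was at 259 CPM in WT melanoma cells and 273 in KO, at 375 and 329 CPM in macrophages, and at 443 and 296 CPM in monocytes. CAFs were lower, at 167 and 150 CPM, and endothelial cells were at 153 and 72.2 CPM. Myeloid cells therefore had the highest values of this gene in both libraries, and macrophages and monocytes did not differ beyond their intervals in either. In KO the monocyte interval (217 to 395 CPM, 46 UMIs) included the melanoma level.

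The light chains Slc7a11 and Slc7a5 went separate ways. Slc7a11 was highest in monocytes, at 178 CPM (128 to 242, 41 UMIs) in WT and 116 CPM (68.6 to 183, 18 UMIs) in KO. Macrophages came next, at 32.6 CPM (25.8 to 40.6) and 24.4 CPM (17.7 to 32.7), and the interval of the monocytes lay above that of the macrophages in both libraries. Melanoma cells were at 11.6 CPM (10.1 to 13.2) in WT and 24.2 CPM (22.1 to 26.5) in KO, so that the melanoma interval lay below that of the macrophages in WT and overlapped it in KO. In CAFs only 4 and 7 UMIs of Slc7a11 were counted, and in endothelial cells 2 and 0. Melanoma RNA at the level of the melanoma markers would give 0.783% of the Slc7a11 level of WT monocytes and 2.26% of that of KO monocytes.

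Slc7a5, the leucine carrier, had the opposite distribution. Melanoma cells were at 18.8 CPM in WT and 32.6 in KO, CAFs at 9.53 and 5.85 (7 and 5 UMIs) and macrophages at 4.54 and 4.98 (11 and 9 UMIs). Monocytes and endothelial cells had at most 2 UMIs each. Melanoma RNA at the marker level would give 26.7% of the macrophage level in WT and 43.8% in KO.

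The glutamine carrier Slc1a5 was lowest in macrophages, at 13.2 CPM in WT and 23.8 in KO. CAFs were at 51.7 and 69.1 CPM and endothelial cells at 66.3 and 63.2 CPM (20 and 7 UMIs), and these did not differ beyond their intervals in either library. The alanine and serine carrier Slc1a4 was sparse, at 3.53 and 7.11 CPM in melanoma cells. Its counts were 3 and 5 UMIs in CAFs, 3 and 3 in macrophages, 1 and 0 in endothelial cells and 0 in both libraries in monocytes. A count of 0 allows up to 3 UMIs, which is 13.0 CPM in WT monocytes and 19.3 CPM in KO monocytes, above the melanoma level.

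Slc7a1, the arginine carrier, was at 70.3 and 86.3 CPM in melanoma cells, against 40.8 and 17.6 CPM in CAFs and 17.7 and 18.8 CPM in macrophages. Of the glutamine carriers of system A, Slc38a1 was at 241 and 237 CPM in melanoma cells, 187 and 167 CPM in monocytes and 81.3 and 57.0 CPM in macrophages. CAFs had 13.6 and 8.19 CPM of it, and melanoma RNA at the marker level would give 76.7% of that value in WT and 148% in KO. Slc38a1 in CAFs was thus at the level of melanoma RNA. Slc38a2 was broadly present, from 135 and 127 CPM in macrophages through 207 and 194 CPM in CAFs and 233 and 213 CPM in melanoma cells to 374 and 315 CPM in monocytes. In endothelial cells it was at 312 CPM in WT (94 UMIs) and 515 CPM in KO (57 UMIs).

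The first comparison between genotypes was in the melanoma cells, which keep Atf4 in hosts of either genotype. Slc7a11, Slc1a4 and Slc7a5 were past 1.5-fold higher in KO hosts, and none of the 8 was past 1.5-fold lower. Among all 11056 genes with at least 50 UMIs over both libraries, 6.39% were that much higher, 3.65% that much lower and 10.0% either. The median log2 KO/WT ratio was 0.38 over the 8 transporters and 0.02 over all these genes.

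Slc7a11 went from 11.6 to 24.2 CPM (233 and 484 UMIs), a log2 ratio of 1.07 (0.84 to 1.30). Slc1a4 went from 3.53 to 7.11 CPM (71 and 142 UMIs), a log2 ratio of 1.01 (0.59 to 1.44). Slc7a5 went from 18.8 to 32.6 CPM (378 and 651 UMIs), a log2 ratio of 0.79 (0.61 to 0.98). The cystine and serine carriers were thus at about 2 times their WT level, and the leucine carrier differed somewhat less. Slc1a5 and Slc7a1 were higher by less than 1.5-fold, with log2 ratios of 0.47 (0.33 to 0.61) and 0.30 (0.19 to 0.40). The shared heavy chain Slc3a2 was close to equal, with a log2 ratio of 0.08 (0.02 to 0.13), unlike Slc7a11 and Slc7a5. Slc38a1 was at -0.02 (-0.08 to 0.03) and Slc38a2 slightly lower at -0.13 (-0.19 to -0.07). The 10 richest cells held 19.7% of the Slc7a11 UMIs in WT and 11.0% in KO. For Slc1a4 they held 18.3% and 14.1%, and for Slc7a5 6.08% and 5.22%. The Slc7a11 UMIs lay in 149 WT and 307 KO cells, with up to 7 in 1 cell, so its counting intervals are too narrow here.

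**Figure D2:**
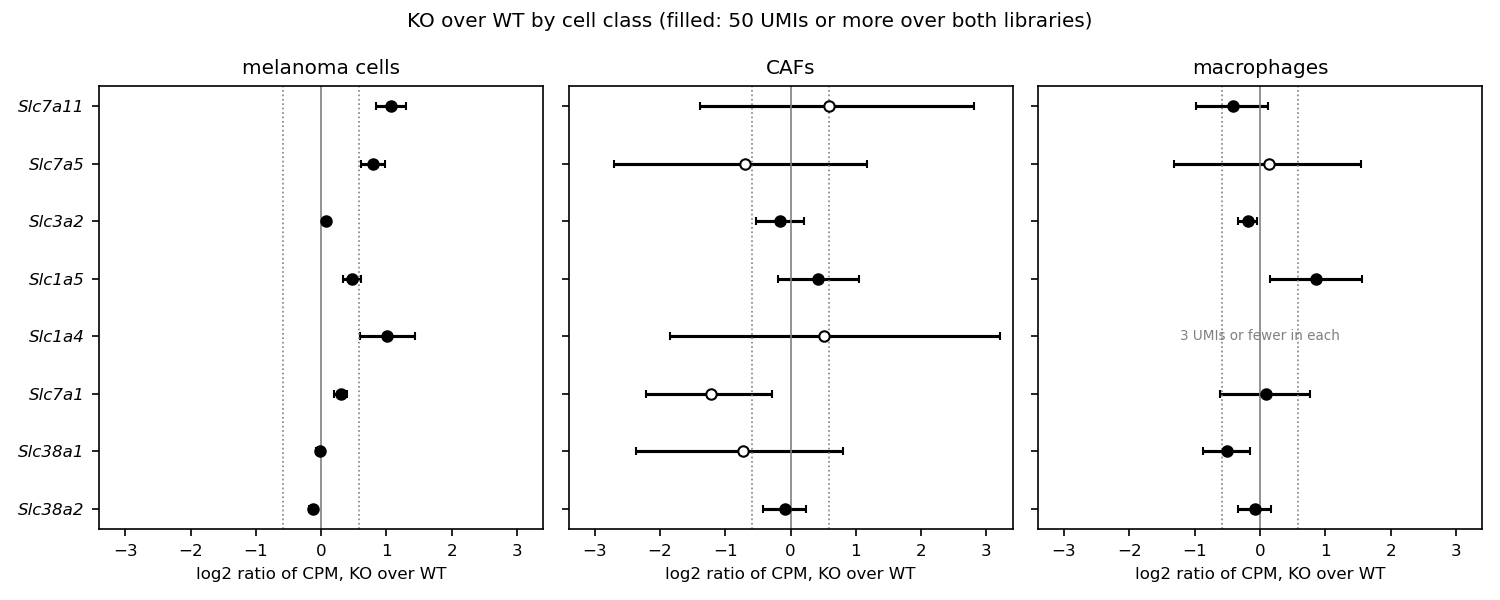
Log2 ratio of CPM, KO over WT, for each transporter in melanoma cells, CAFs and macrophages, with exact 95% intervals for counting error; dotted lines mark 1.5-fold, filled points have at least 50 UMIs over both libraries and open points fewer. In melanoma cells Slc7a11, Slc7a5 and Slc1a4 lie beyond the upper line, and in CAFs the interval of Slc7a1 lies below 0.

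The same genes were next compared in host cells, which lose Atf4 in KO. In CAFs 3 of the 8 transporters had at least 50 UMIs, and 0 of these 3 were past 1.5-fold, against 22.4% of 4228 genes (9.25% higher and 13.1% lower). Slc3a2 had a log2 ratio of -0.16 (-0.53 to 0.21), Slc1a5 of 0.42 (-0.20 to 1.04) and Slc38a2 of -0.09 (-0.42 to 0.24). Slc7a1 fell just short of the count minimum, with 30 UMIs in WT (40.8 CPM) and 15 in KO (17.6 CPM), and its log2 ratio was -1.22 (-2.22 to -0.28). Its ratio was below 0 under each of 13 alternative settings, between -2.17 and -0.81, and with CAFs taken from clusters or with the gate thresholds doubled it passed the minimum, at -0.81 in both. The remaining 4 genes had 3 to 10 UMIs per library, and their intervals included 0.

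In macrophages 6 of the 8 transporters had at least 50 UMIs and 1 was past 1.5-fold, against 12.8% of 6913 genes (6.65% higher and 6.10% lower). That gene was Slc1a5, at 13.2 CPM in WT and 23.8 in KO (32 and 43 UMIs), a log2 ratio of 0.85 (0.16 to 1.56). The ratio was 0.74 in the Xist-positive cells, where the gene fell below the count minimum, and 0.48 after thinning to 2000 UMIs per cell. Slc38a1 was lower, at 81.3 and 57.0 CPM (197 and 103 UMIs), a log2 ratio of -0.51 (-0.87 to -0.16), and it was at -1.01 in those cells that had Xist but no Y-linked UMIs. Slc3a2 was slightly lower at -0.19 (-0.34 to -0.04), and Slc7a11, at -0.42 (-0.99 to 0.13), had an interval that included 0. Slc7a1 at 0.09 (-0.61 to 0.77) and Slc38a2 at -0.08 (-0.33 to 0.16) were near 0. The upper bound of the Slc7a11 ratio in macrophages, 0.13, lay below its lower bound in melanoma cells, 0.84, and the difference between the classes was not tested. The 10 richest macrophages held 35.4% of the macrophage Slc7a11 UMIs in WT and 52.3% in KO, so the counting intervals are too narrow for this gene there. With 11 and 9 UMIs a 1.5-fold difference of Slc7a5 was not detectable in macrophages. The clusters named macrophage also differed in size between the libraries: cluster 5, led by Pf4 and Ms4a7, held 643 WT and 389 KO cells, cluster 4, with Retnla and Arg1, 118 and 25, and cluster 11, with Lyve1, 137 and 239. The macrophage ratios therefore compare different mixtures, and the part of this in them was not tested.

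In the smaller gates Slc3a2 was lower in KO monocytes, with a log2 ratio of -0.58 (-1.12 to -0.07, 102 and 46 UMIs). Slc7a11 in monocytes had a ratio of -0.62 (-1.51 to 0.21), which included 0. In endothelial cells Slc38a2 had a ratio of 0.72 (0.22 to 1.21) and Slc3a2 of -1.08 (-2.37 to 0.02, 46 and 8 UMIs). The KO endothelial values rest on 27 cells.

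Cells that passed no gate made up 14.7% of WT and 15.3% of KO cells, and they were not alike. Clusters named melanoma gave 19.7% of the UMIs of the WT cells outside the gates and 80.5% of those in KO. In these cells Slc7a11 was at 67.7 CPM in WT and 70.4 in KO (59 and 135 UMIs), a log2 ratio of 0.06 (-0.40 to 0.52). Slc1a5 and Slc7a1 had ratios of 1.02 (0.42 to 1.67) and 0.95 (0.39 to 1.55). Because the makeup of these cells differed between the libraries, their ratios compare different mixtures.

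Melanoma cells differ in state within a tumour, and the transporters followed these states unequally. Within each library the 20% of melanoma cells with the highest level of 6 stress genes (Nupr1, Atf5, Trib3, Chac1, Ddit3 and Sesn2), taken at matched depth, was set against the other cells. None of the transporters is in that list. Slc7a11 was at 32.3 CPM in stress-high cells and 6.39 in the others in WT (130 and 103 UMIs), and at 62.9 and 14.7 CPM in KO (248 and 236 UMIs). Slc1a4 was at 9.20 and 2.11 CPM in WT (37 and 34 UMIs), and at 18.0 and 4.43 CPM in KO (71 and 71 UMIs). These genes, the pair with the motif among the 5 that had a promoter window, were higher in the stress-high cells of both libraries. Slc3a2, Slc7a1 and Slc38a2, whose windows held no match, were also higher there in both libraries, by smaller ratios. A link between motif and stress score was not tested.

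As log2 ratios of stress-high over other cells, Slc7a11 had 2.34 (1.95 to 2.73) in WT and 2.10 (1.83 to 2.36) in KO. Slc1a4 had 2.12 (1.41 to 2.84) and 2.02 (1.53 to 2.52). They were 2 of 8 transporters past 1.5-fold higher in both libraries, against 1.44% of 9924 genes, and 0 of 8 were past it lower, against 0.544%. Slc3a2 had ratios of 0.37 in WT and 0.70 in KO and Slc1a5 of 0.33 and 0.83, past 1.5-fold in KO alone, though the difference between the libraries was not tested. Slc7a1 (0.49 and 0.45), Slc7a5 (0.37 and 0.42) and Slc38a2 (0.20 and 0.17) were higher by less. Slc38a1 stood at -0.17 (-0.27 to -0.06) and -0.07 (-0.17 to 0.04). The cell split takes the highest 20% by score, so it is one of degree and not of types. Within 10% of the median score of the stress-high cells lay 50 WT and 59 KO cells. Cells close to the cutoff itself were not counted. Among genes with a promoter window, 10.3% of the 117 that were higher in stress-high cells of both libraries held the motif, and 2.46% of the 7891 compared. Slc7a11 and Slc1a4 are themselves among these 117, so the first share is in part their own, and the shares were not tested.

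**Figure D3:**
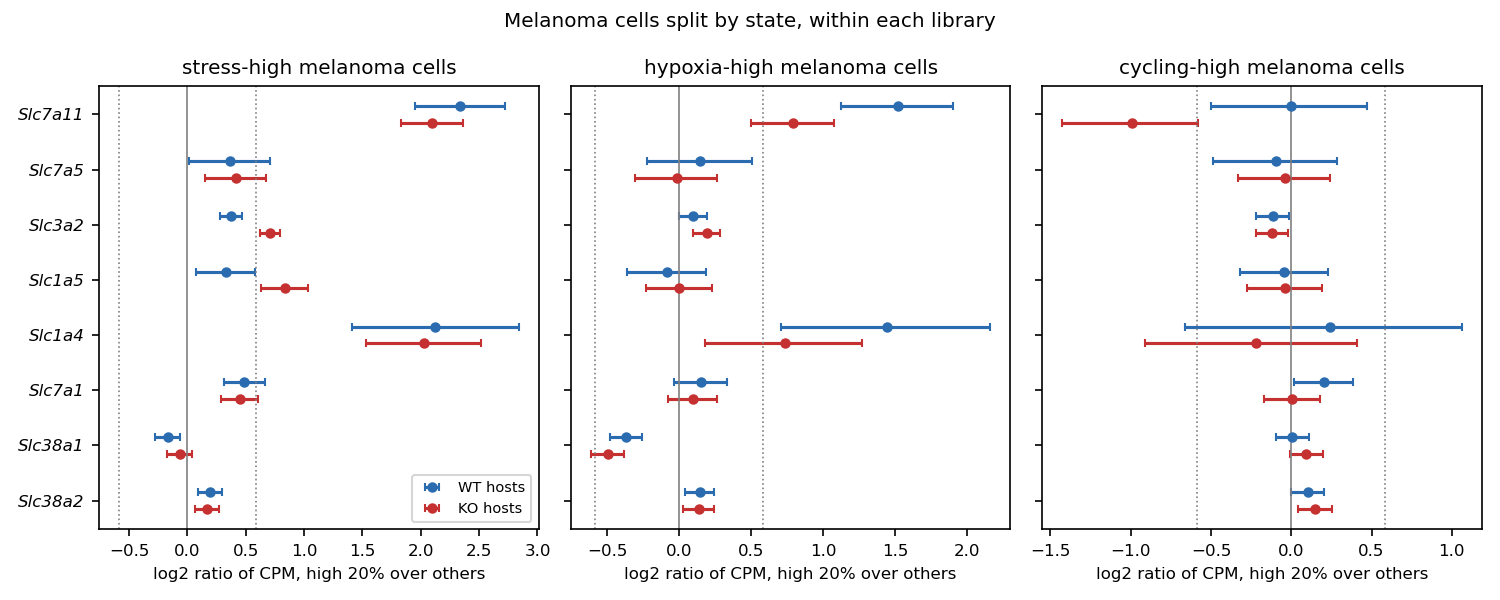
Log2 ratio of CPM for the 20% of melanoma cells highest in stress, hypoxia or cycling genes over the other melanoma cells, within the WT (blue) and KO (red) library, with exact 95% intervals for counting error and dotted lines at 1.5-fold. Slc7a11 and Slc1a4 lie beyond the upper line for stress and for hypoxia in both libraries, and the other 6 genes do so in both libraries in no panel.

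A split by 9 hypoxia genes such as Vegfa and Car9 gave the same pair at smaller ratios. Slc7a11 was at 24.0 CPM in hypoxia-high cells and 8.41 in the others in WT, a log2 ratio of 1.52 (1.13 to 1.90), and at 36.5 and 21.1 CPM in KO, a ratio of 0.79 (0.50 to 1.08). Slc1a4 had ratios of 1.44 (0.71 to 2.16) and 0.74 (0.18 to 1.27). These were 2 of 8 genes past 1.5-fold higher in both libraries, against 3.68% of 9922 genes. Slc38a1 ran the other way, at -0.37 (-0.48 to -0.26) and -0.50 (-0.61 to -0.38). By 7 cycling genes 0 of 8 transporters were past 1.5-fold in either direction in both libraries, against 2.12% higher and 1.19% lower of 9923 genes. Slc7a11 was equal in cycling-high and other cells in WT (11.6 and 11.6 CPM) and lower in KO (13.5 and 26.9 CPM).

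In macrophages of WT hosts Slc7a11 was higher in the hypoxia-high cells. It was at 78.0 CPM in hypoxia-high and 21.2 CPM in other macrophages of WT (38 and 41 UMIs), a log2 ratio of 1.88 (1.21 to 2.55), and at 35.6 and 21.5 CPM in KO (13 and 31 UMIs), a ratio of 0.73 (-0.33 to 1.70).

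The stress genes were themselves higher in the melanoma cells of KO hosts, at 256 CPM against 87.7 in WT, a log2 ratio of 1.54 (1.46 to 1.62). The genotypes were therefore set side by side among melanoma cells of like stress score, in cells with no stress UMI (951 WT and 581 KO cells), cells with one or more but below the top 20% of both libraries together (667 and 692), and cells in that top 20% (160 and 564). For Slc7a11 the levels in WT and KO were 5.73 and 5.74 CPM in cells with no stress UMI, 11.7 and 16.5 CPM in the middle and 54.3 and 54.7 CPM in the top 20%. Its log2 KO/WT ratios were 0.00 (-0.66 to 0.64), 0.50 (0.12 to 0.88) and 0.01 (-0.36 to 0.39), against 1.07 over all melanoma cells. Slc1a4 had ratios of 0.75 (-0.33 to 1.83), -0.11 (-0.87 to 0.64) and 0.14 (-0.55 to 0.90), each with an interval that included 0. These rest on few UMIs in WT and KO, 17 and 16, 33 and 31, and 21 and 95. The interval with no stress UMI also included the ratio of Slc1a4 over all melanoma cells, 1.01.

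Slc7a5 behaved differently. It was at 16.5 CPM in WT and 27.8 in KO in cells with no stress UMI, at 20.6 and 30.6 CPM in the middle and at 24.6 and 40.3 CPM in the top 20%. The log2 ratios of 0.75 (0.43 to 1.07), 0.57 (0.29 to 0.86) and 0.71 (0.19 to 1.28) were each near its ratio of 0.79 over all melanoma cells. Slc3a2 was lower or equal in KO within each bin, at -0.15 (-0.25 to -0.05), -0.05 (-0.14 to 0.03) and -0.17 (-0.31 to -0.04), although it was slightly higher over all cells. Slc1a5 went from 0.16 (-0.10 to 0.40) with no stress UMI to 0.60 (0.21 to 1.004) in the top 20%. The bins did not level stress fully. The 6 stress genes were at 115 CPM in WT and 132 in KO in the middle, and at 577 and 702 CPM within the top 20%.

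**Figure D4:**
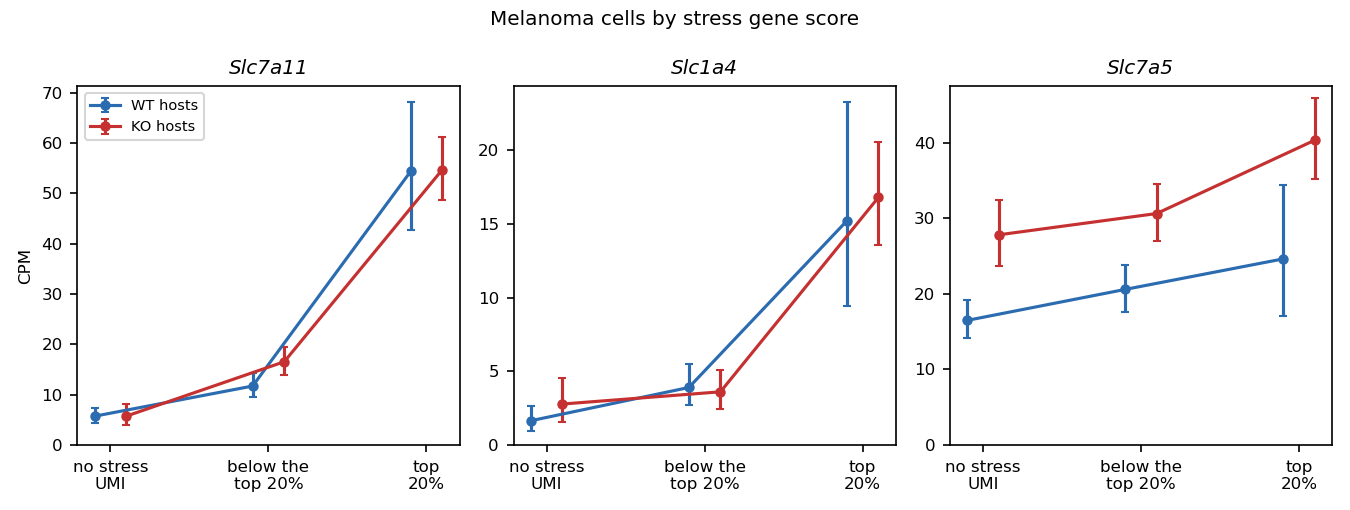
CPM (linear axis from 0) of Slc7a11, Slc1a4 and Slc7a5 in melanoma cells of the WT (blue) and KO (red) library by stress gene score, with exact 95% Poisson intervals for counting error. Slc7a11 is higher at higher scores, up to 54.3 CPM in WT and 54.7 in KO with the libraries close together at both ends, while Slc7a5 stays higher in KO at each of the 3 scores.

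Within 5 bins of the hypoxia score, where the libraries held similar cell numbers, Slc7a11 was higher in KO throughout. Its log2 ratio was 2.73 (1.80 to 3.80) in the least hypoxic bin (2.66 and 17.7 CPM, 11 and 65 UMIs). It was 1.48, 0.69 and 1.28 in the bins between, and 0.45 (0.06 to 0.83) in the most hypoxic one (27.6 and 37.6 CPM). The ratios thus did not fall steadily with the score. Slc7a5 had ratios of 0.67 to 1.01 in these bins. Across 5 bins of the cycling score Slc7a11 had ratios of 0.59 to 1.04 and Slc7a5 of 0.57 to 1.01.

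The melanoma cells also fell into clusters, made without the transporters, that served as a second division. Cluster 1 (1062 WT and 723 KO cells, led by genes such as Trpm1 and Rrm2) had Slc7a11 at 6.47 and 9.76 CPM. Cluster 2 (406 and 709 cells, with Asns among its leading genes) had 14.5 and 24.3 CPM, and cluster 12 (235 and 540 cells, with Car9 and Bnip3) had 33.3 and 51.1 CPM. KO/WT log2 ratios of Slc7a11 within these clusters were 0.59 (0.11 to 1.08), 0.75 (0.33 to 1.17) and 0.62 (0.25 to 1.001). Clusters 2 and 12 held more KO than WT cells and cluster 1 fewer. Slc7a5 differed little among clusters 1, 2 and 12 (17.0, 21.2 and 20.1 CPM in WT) and was higher in KO in each of them, by log2 ratios of 0.80, 0.63 and 0.78. In the small cluster 10 (21 and 45 cells) Slc7a5 was at 37.9 and 33.1 CPM, a ratio of -0.20 (-1.46 to 1.16), and Slc7a11 was at 4.21 CPM in WT (1 UMI) and 49.6 CPM in KO (24 UMIs), a ratio of 3.56 (0.94 to 8.92).

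Lists of related genes place the transporters in their pathway, described for the genes with at least 50 UMIs. In melanoma cells 14 of 36 other amino acid transporters were counted. Of these, 2 were past 1.5-fold higher in KO and 0 lower, with a median log2 ratio of 0.26. Over all genes counted in melanoma cells, 6.39% were past 1.5-fold higher and 3.65% lower. Those with the most UMIs were Slc6a6, a taurine carrier, at 0.32 (0.24 to 0.40), Slc38a10 at 0.38 (0.28 to 0.48), Slc6a17 at 0.12 (-0.01 to 0.24) and Slc38a6 at 0.57 (0.32 to 0.83). The genes past 1.5-fold were Slc6a15 at 0.71 (0.43 to 0.99) and Slc6a9, a glycine carrier, at 1.39 (0.89 to 1.90).

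Regulators of the integrated stress response had the larger ratios in melanoma cells: 10 of the 15 counted (of 16) were past 1.5-fold higher and 0 lower, with a median of 0.87. Eif4ebp1, an inhibitor of cap-dependent translation, had a ratio of 0.94 (0.89 to 0.998) and Nupr1, a stress-induced chromatin protein, of 2.32 (2.17 to 2.48). Ddit3 (CHOP), a stress-induced transcription factor, had 0.74 (0.59 to 0.89). Cebpg, with the next most UMIs, was below 1.5-fold at 0.28 (0.13 to 0.43). Of amino acid synthesis enzymes 11 of 12 were counted, 4 were past 1.5-fold higher and 0 lower, with a median of 0.42. Phgdh, the first enzyme of serine synthesis, had 0.29 (0.23 to 0.35), mitochondrial Mthfd2 0.42 (0.35 to 0.48), asparagine synthetase Asns 0.78 (0.71 to 0.86) and Got1 0.19 (0.12 to 0.27). Targets of NRF2, another known activator of Slc7a11, were counted for 8 of 8, with 3 past 1.5-fold higher, 0 lower and a median of 0.27. Txnrd1 had 0.21 (0.15 to 0.28), Hmox1 0.28 (0.19 to 0.37), Gclm 0.27 (0.16 to 0.37) and Gsr -0.05 (-0.18 to 0.08). Srxn1, with fewer UMIs and past 1.5-fold, had 1.46 (1.25 to 1.66). The median of the 8 transporters, 0.38, thus lay between that of the NRF2 targets and that of the synthesis enzymes. The stress regulators include the genes used for the stress score.

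**Figure D5:**
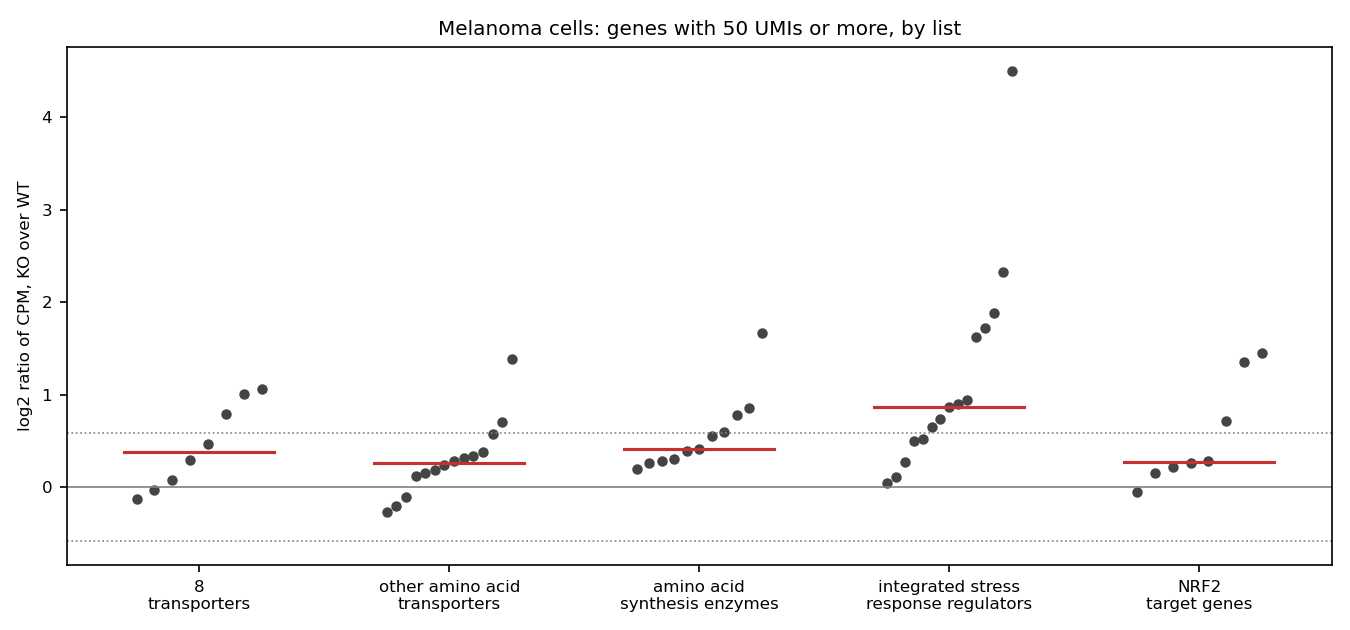
Log2 ratio of CPM, KO over WT, in melanoma cells for the 8 transporters and the counted genes of 4 lists, each point being 1 gene with at least 50 UMIs over both libraries, ordered by value within its list; red lines are medians and dotted lines mark 1.5-fold. The medians are 0.38 for the transporters, 0.26 for other transporters, 0.42 for synthesis enzymes, 0.87 for stress response regulators and 0.27 for NRF2 targets.

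The same lists looked different in the host cells. In CAFs 10 stress response regulators were counted, 2 past 1.5-fold higher and 4 lower. Over all genes counted there, 9.25% were past 1.5-fold higher and 13.1% lower. The median was -0.27 for these regulators and -0.04 over all these genes. Eif4ebp1 was higher at 0.81 (0.51 to 1.12), while Atf5, a transcription factor downstream of ATF4, was lower at -1.35 (-1.85 to -0.87). Cebpb, with the most UMIs of these regulators, was at -0.29 (-0.51 to -0.08), and Nupr1 was at -0.24 (-0.57 to 0.08). Of 6 synthesis enzymes in CAFs 0 were past 1.5-fold higher and 1 lower, Mthfd2 at -0.63 (-1.25 to -0.03). Only 2 other transporters were counted in CAFs, Slc38a10 at -0.17 (-0.56 to 0.23) and Slc6a6 at 0.56 (-0.09 to 1.24), and all 6 counted NRF2 targets had ratios above 0, with a median of 0.53. Past 1.5-fold higher were Hmox1 at 0.88 (0.52 to 1.25) and Srxn1 at 0.85 (0.31 to 1.40). In macrophages 1 of 11 other transporters (Slc38a6, 0.82) and 2 of 9 stress response regulators (Nupr1, 1.32, and Eif4ebp1, 0.76) were past 1.5-fold higher. The counts were 4 of 8 for synthesis enzymes and 0 of 6 for NRF2 targets, and none of these lists had a gene past it lower. Over all genes counted in macrophages, 6.65% were past 1.5-fold higher and 6.10% lower.

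Over the 10 sums of 5 classes in 2 libraries, the profiles most like those of 7 of the transporters were found among 8038 genes by Pearson's r of log2(CPM + 10), as a description over points that share libraries. Slc7a5 was most like Lars, the leucyl-tRNA synthetase (r = 0.983), and Slc7a11 most like Itga4, an integrin chain of leukocytes (r = 0.956), with Jarid2 next. Slc7a1 was most like Zfp445 and Mob4, Slc3a2 like Ncoa6 and Sdf2l1, Slc38a1 like Lpcat2 and Thumpd3, Slc38a2 like Arf1 and Ap4m1, and Slc1a4 like Gbf1 and Gstm5, with r of 0.906 to 0.985. Slc1a4 had at most 5 UMIs in any sum of host cells, so its profile lay near the floor and its matches say little. Slc7a5 had at most 2 UMIs in each sum of monocytes and endothelial cells. Among the transporters themselves Slc7a5 and Slc7a1 had an r of 0.907, Slc3a2 and Slc7a11 of 0.813, and Slc3a2 and Slc7a5 of 0.025. Across these sums Slc3a2 thus ran with Slc7a11 and not with Slc7a5, and light chains outside the 8 genes were not compared in this way.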

How the data were processed

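Tumours of 1 library per host genotype were profiled with a 3′ single-cell kit, and the authors made the deposited matrices of raw UMI counts per gene and cell with Cell Ranger 3.1.0 on GRCm38, per the labels, which also name Seurat 3.2.1. The kit version and the age of the mice differ between labels and methods. The counts were used as deposited.

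Cells were kept if they had 200 to 5000 genes and a mitochondrial share of 7.5% or less. A cell was gated where the summed markers of a class reached a minimum per 10000 UMIs (melanoma 40, CAF 50, macrophage, monocyte and endothelial 20, T/NK 10) with at least 4 distinct melanoma or 3 host markers. These minimums were set after the marker levels had been seen, a gate cuts a range, and 22 WT and 59 KO melanoma cells lay within 25% above it. Cells in both myeloid gates went to the higher score, and other cells in several gates (79 WT and 60 KO) were left out as possible doublets. Scrublet in scanpy 1.11.5 marked 114 WT and 50 KO cells, and their removal was an alternative. The libraries shared 10 barcodes, 1 with both cells kept.

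UMIs were summed by class and library, with exact Poisson intervals for levels and exact conditional binomial intervals for ratios (95%, scipy 1.17.1, pandas 2.3.3, numpy 2.4.6, Python 3.11.15). Genes with at least 50 UMIs over both libraries were counted, 1.5-fold was the size rule, and no ratio was given where both libraries had 3 UMIs or fewer. State splits took the highest 20% of cells within 5 depth bins (2 in CAFs). The ratio step was tested on simulated data. Alternatives were a 15% mitochondrial limit, no gene limit, doublets removed, clusters, doubled thresholds, other scalings (edgeR 4.0.16 for TMM), thinning to 2000 UMIs, subtraction of melanoma RNA, no count minimum and Xist-positive host cells. The text names the 8 transporters, Atf4, up to 4 genes per list with the most UMIs, list genes past 1.5-fold chosen after their values were seen, and the 2 most similar profiles per transporter, of which those of Slc1a5 are not reported here. The transporters and the lists were chosen with earlier results of these data known. Positions of windows and sequences are from RefSeq.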

Additional observations from a re-analysis of the deposited data

Results flagged for a closer look

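The ratio of Slc3a2 lay above 0 in melanoma cells and below 0 in macrophages. Its log2 KO/WT ratio was 0.0775 in melanoma cells and -0.189 in macrophages, with both counting intervals off 0. The difference between these ratios was not tested, since there was 1 library per genotype. In melanoma cells the ratio was 0.0031 with a 15% mitochondrial limit, and it was below 0 within each bin of the stress score. In macrophages it was -0.36 in those cells that had Xist but no Y-linked UMIs. In CAFs it was -0.16 (-0.53 to 0.21), with an interval that included 0, and 0.15 in the cells with Xist alone.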

How the results depend on the processing

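No paired analysis was possible because there was a single library for WT and for KO. In melanoma cells Slc7a11, Slc7a5 and Slc1a4 stayed higher in KO under all 11 alternatives, at log2 ratios of 0.89 to 1.21, 0.76 to 0.89 and 0.92 to 1.22. Among the counts and Atf4 ratios, 125 values under alternatives stayed near the reported value and 13 moved, and the Atf4 ratios kept their sign. Of the transporter ratios, 273 stayed and 7 moved. Several transporter ratios changed sign under some setting, among them Slc7a5 in CAFs (-2.17 to 0.90) and Slc7a1 in macrophages (-0.36 to 0.95). The count of other transporters past 1.5-fold in melanoma cells was 4 with the 15% mitochondrial limit, 1 after thinning and 8 with no minimum above 3 UMIs, against 2. The count of the 8 genes in CAFs was 1 with classes from clusters, 1 with doubled gate thresholds and 4 with no minimum, against 0. In macrophages it was 2 after subtraction of melanoma RNA (Slc1a5 and Slc38a1), against 1, and the 1 gene was Slc7a11 at -1.30 after thinning and Slc38a1 at -1.01 in the Xist-positive cells. After thinning, 1 gene was highest in melanoma cells in both libraries, against 3. In stress-high cells 0 were past 1.5-fold, against 2, but only 6 of the 8 reached 50 UMIs in each library. A gene below that minimum could not be called, so this 0 does not show that the ratios of Slc7a11 and Slc1a4 fell. Atf4 in CAFs had ratios of -1.89 with clusters and -3.65 in Xist-positive cells, and in macrophages -2.59 after subtraction and -1.72 in Xist-positive cells. The causes of these moves were not tested. TMM and median-of-ratios changed the median ratio of all genes by less than 0.1. TMM, median-of-ratios, the Xist restriction and the missing minimum were not run for the order of classes. Depth limits the monocyte and endothelial gates and Slc1a4 in host cells.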
